A study of Mus musculus with 12 samples.

Results

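The cytosolic ribosomal protein genes are the genes for the proteins of the 2 ribosomal subunits that translate nuclear messages. They were taken from the deposited count table as the protein-coding rows whose symbols follow the Rpl, Rps, Rpsa or Rplp naming pattern, with no use of measured values. This gave 83 of 54532 genes, 51 of the large subunit and 32 of the small subunit. Of these, 80 genes (48 large and 32 small) had enough counts to be tested, among 14686 tested genes. The RNA came from liver of wild-type (WT) mice, and every group had received an adenovirus for 9 days, so no group was free of virus. The Ad_GFP group, named for green fluorescent protein, had the control virus and the ANG8 group a virus to overexpress ANGPTL8, a liver and fat hormone that takes part in restraining lipoprotein lipase. The shCtrl group had a control hairpin virus and the shANG8 group a virus to knock ANGPTL8 down. Each group held 3 libraries of 12537083 to 15144312 counts. The series title speaks of chow mice, and strain, sex, age, promoter and number of animals are not stated in the sources used here. Nor is it stated whether each library is 1 animal, so p-values cover only the spread between the samples at hand, part of which may be technical.

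A ribosome joins a small subunit, which reads the message, to a large subunit, which forms the peptide bonds and holds the exit tunnel. Each subunit takes 1 copy of nearly every one of its proteins, and the liver, which exports much of the blood's protein, needs large amounts of them. Ribosomal protein messages carry a pyrimidine tract at their start that ties their translation to mTORC1, so the amount of message need not follow the amount of protein made. Mammalian genomes also hold many processed pseudogenes of these genes, copies of the message with few or no differences.

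Overexpression is the ANG8 group against Ad_GFP, and knockdown is shANG8 against shCtrl. These comparisons share no library. Levels are counts-per-million values (CPM) after scaling by edgeR's trimmed mean method (TMM). Effects are log2 fold changes with a standard error (SE) from edgeR's quasi-likelihood test. Called means an adjusted p under 0.05, with the adjustment over all tested genes. The targeted gene, Angptl8, read 96.8, 80.4 and 90.05 CPM in Ad_GFP and 165, 314 and 172 in ANG8, an effect of 1.28 (SE 0.33, adjusted p = 0.0201). It read 339.9, 391 and 167 CPM in shCtrl and 144, 143 and 79.2 in shANG8, where the lower level did not pass the test (-1.29, adjusted p = 0.235). Replicates 1 and 2 of shCtrl held the highest Angptl8 levels of all 12 libraries, and shCtrl against Ad_GFP was at 1.75, which did not pass the test (adjusted p = 0.338). Genes of the mitochondrial genome took 19.3 to 43.8% of the counts, with 39.0, 43.8 and 22.5% in the ANG8 libraries and 34.9% in Ad_GFP replicate 2.

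Few ribosomal protein genes passed the test in either comparison, and most effects were near 0. Under overexpression 3 of 80 members were called: Rpl24 was lower, and Rps28 and Rpl41 were higher. Over all tested genes 13.5% were called, 7.08% higher and 6.39% lower. An unadjusted p under 0.05 was found for 9 of 80 members and for 27.7% of all genes. The median effect was 0.07 over the large subunit and 0.08 over the small subunit, against 0.00 over all genes. Effects within 0.5 on the log2 scale were seen for 75 of 80 members (93.8%) and for 61.7% of all tested genes. Under knockdown 1 of 80 members (1.25%), Rpl24, was called, where 0.191% of all genes, 28 in number, were, 0.0613% higher and 0.129% lower. An unadjusted p under 0.05 was found for 15 of 80 members, a larger share than the 7.93% of all genes. The median effect was -0.00182 over the large and 0.03 over the small subunit, and 71 of 80 members (88.8%) lay within 0.5, against 80.1% of all genes.

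The direct test of overexpression against knockdown called 0 of 80 members with edgeR, where 6.62% of all genes were called. DESeq2 and voom also called 0, and 5 members had an unadjusted p under 0.05, as did 21.9% of all genes. Of the 80 members, 55 (68.8%) had effects of the same sign in both comparisons, against 45.8% of all tested genes. Members without overlap between the groups numbered 14 higher and 4 lower under overexpression, where 17.9% and 16.2% of all genes were so. Under knockdown they numbered 14 higher and 9 lower, where 6.16% and 6.78% of all genes were so. In both comparisons Rpl24 and Rpl30 were free of overlap on the low side, and Rps28 and Rpl41 on the high side. The share of all genes without overlap in both comparisons is not given here. Whether 4 of 80 members is more than that share can therefore not be told.

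**Figure D1:**
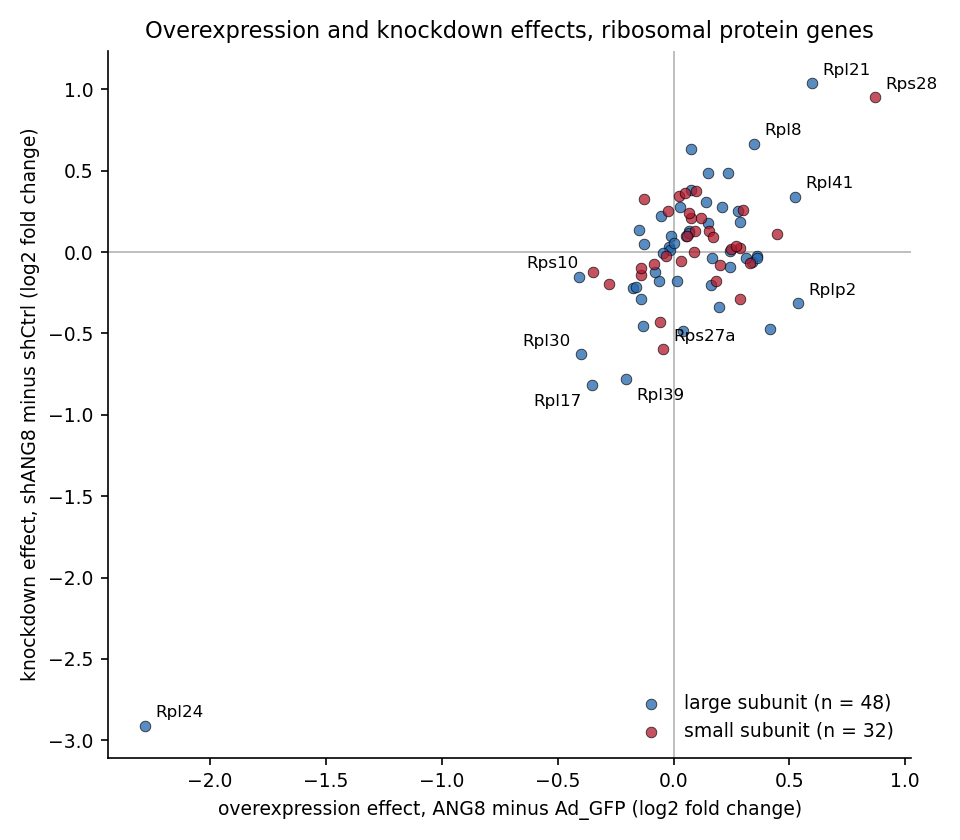
Each point is 1 of 80 tested genes, with the overexpression effect on the x axis and the knockdown effect on the y axis (log2 fold changes), coloured by subunit. Most points lie within 0.5 of 0 on both axes, and Rpl24 stands apart at -2.28 and -2.91.

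Rpl24 (ENSMUSG00000098274, GRCm38 chromosome 16, 55966275 to 55971435, plus strand) encodes a large-subunit protein that forms a bridge to the small subunit. The gene read 8.41, 12.4 and 8.07 CPM in Ad_GFP and 2.25, 1.39 and 2.24 in ANG8. It was 7.13, 8.81 and 9.65 CPM in shCtrl and 1.74, 0.944 and 0.703 in shANG8. Every library of ANG8 and shANG8 lay below every library of the control groups. The raw counts behind these levels were few, 120 to 168 in Ad_GFP, 17 to 37 in ANG8, 105 to 129 in shCtrl and 10 to 23 in shANG8. The mean fell from 9.64 ± 2.43 to 1.96 ± 0.492 CPM (SD, n = 3), an effect of -2.28 (SE 0.33, adjusted p = 0.000435). Under knockdown it fell from 8.53 ± 1.29 to 1.13 ± 0.544 CPM, an effect of -2.91 (SE 0.35, adjusted p = 0.000491). The direct test of a difference between the effects did not pass (0.63, SE 0.48, adjusted p = 0.483).

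Most counts of the Rpl24 family were not on the gene itself. Processed pseudogenes and other genes with a transcript at least 95% identical over at least 50% of the principal transcript are called copies here. Such copies held 73.5% of the counts of Rpl24 and its copies. The most abundant is Gm9385, a processed pseudogene on chromosome 9, 116040593 to 116041064, which differs from the Rpl24 coding sequence by 1 of 471 bases. That change is C313T, counted from the first base of the Rpl24 start codon, and it turns codon 105 into a stop codon. The coding stretch around it, bases 268 to 357 from the GENCODE vM21 transcripts, is printed with the differing base in capitals, to show how little separates reads of gene and copy.
Rpl24: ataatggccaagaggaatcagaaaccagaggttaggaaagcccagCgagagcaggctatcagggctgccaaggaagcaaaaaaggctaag
Gm9385: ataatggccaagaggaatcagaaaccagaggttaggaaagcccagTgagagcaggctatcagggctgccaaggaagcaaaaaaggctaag

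Gm9385 fell together with Rpl24. Its level was 14.4, 21.4 and 14.9 CPM in Ad_GFP and 7.10, 5.16 and 6.79 in ANG8, an effect of -1.41 (SE 0.23, adjusted p = 0.000996). It was 16.6, 19.9 and 23.6 CPM in shCtrl and 7.35, 5.82 and 5.20 in shANG8, an effect of -1.71 (SE 0.23, adjusted p = 0.00120). With the counts of all copies added to Rpl24, the sum still fell, by 1.33 under overexpression (adjusted p = 0.000806) and by 1.75 under knockdown (adjusted p = 0.00118). The summed level was 13.2, 9.09 and 11.6 CPM in ANG8 against 25.1, 36.1 and 24.7 in Ad_GFP, and the sums did not overlap.

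Rpl24 also shares its exons with another annotated gene. In GENCODE vM21, 484 of the 677 bases of its principal transcript (71.5%) also belong to Gm28037, a read-through transcript on the same strand, and Gm28037 had 0 counts in all 12 libraries. Rps10, a small-subunit protein gene, shares 53.6% of its principal transcript with the read-through gene RPS10-NUDT3, and Rpl13a shares 59.3% with Gm45713. Both read-through genes had 0 counts as well. Rps10, Rpl24 and Rpl13a were among the 4 lowest of 80 tested members per length. How reads lying in more than 1 gene were counted is not stated in the sources used here, and the part of shared exons in these levels was not tested.

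Rps28 (ENSMUSG00000067288, GRCm38 chromosome 17, 33819027 to 33824562, minus strand) encodes a small-subunit protein at the exit side of the message channel. Its level was 35.4, 28.1 and 39.9 CPM in Ad_GFP and 66.6, 54.7 and 67.3 in ANG8. It was 34.5, 51.9 and 32.5 CPM in shCtrl and 81.8, 86.2 and 62.4 in shANG8. The ANG8 and shANG8 libraries lay above those of their control groups without overlap. The mean rose from 34.4 ± 5.96 to 62.8 ± 7.08 CPM (SD, n = 3) under overexpression, an effect of 0.87 (SE 0.20, adjusted p = 0.00986). Under knockdown the means were 39.6 ± 10.7 and 76.8 ± 12.7 CPM, and the effect of 0.95 (SE 0.20, adjusted p = 0.0862) did not pass the test. The call was made in 5 of 25 alternatives: DESeq2 gave an adjusted p of 0.00538, testing unfiltered genes 0.00128, a replicate block 0.0393, leaving out shANG8 replicate 3 0.0432 and leaving out shCtrl replicate 2 0.0299. In the other 20 of 25 alternatives it did not pass.

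Rps28 and its most abundant copy moved in opposite directions under overexpression. Its copy Gm10443, a processed pseudogene on chromosome 6, 86334031 to 86334240, is identical over all 207 coding bases. The opening stretch of both, coding bases 1 to 90, has no base in capitals because none differs.
Rps28: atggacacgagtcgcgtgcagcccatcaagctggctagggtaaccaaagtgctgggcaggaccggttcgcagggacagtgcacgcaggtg
Gm10443: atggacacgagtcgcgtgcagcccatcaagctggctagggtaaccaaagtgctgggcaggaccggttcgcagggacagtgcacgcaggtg
Gm10443 fell where Rps28 was higher: it read 34.8, 26.4 and 16.8 CPM in Ad_GFP and 9.20, 10.7 and 9.34 in ANG8, an effect of -1.42 (SE 0.30, adjusted p = 0.00697). It read 36.5, 33.6 and 36.9 CPM in shCtrl and 11.5, 6.92 and 3.94 in shANG8, an effect of -2.26 (SE 0.31, adjusted p = 0.00249). Copies took 52.6, 51.3 and 32.8% of the family's counts in Ad_GFP and 14.1, 17.3 and 14.8% in ANG8. They took 53.4, 42.2 and 55.4% in shCtrl and 13.1, 8.67 and 6.83% in shANG8. The share of copies was thus lower in every ANG8 and shANG8 library than in any control library.

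With copies added, the Rps28 family read 74.7, 57.5 and 59.3 CPM in Ad_GFP and 77.4, 66.1 and 78.9 in ANG8. The effect was then 0.22 (adjusted p = 0.470), which ended the call. Under knockdown the sum read 74.2, 89.9 and 72.9 CPM in shCtrl and 94.2, 94.4 and 66.9 in shANG8, and its effect was 0.11 (adjusted p = 0.935). The values of Rps28 alone are therefore uncertain, since its reads cannot be told from those of Gm10443 over the coding sequence.

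**Figure D2:**
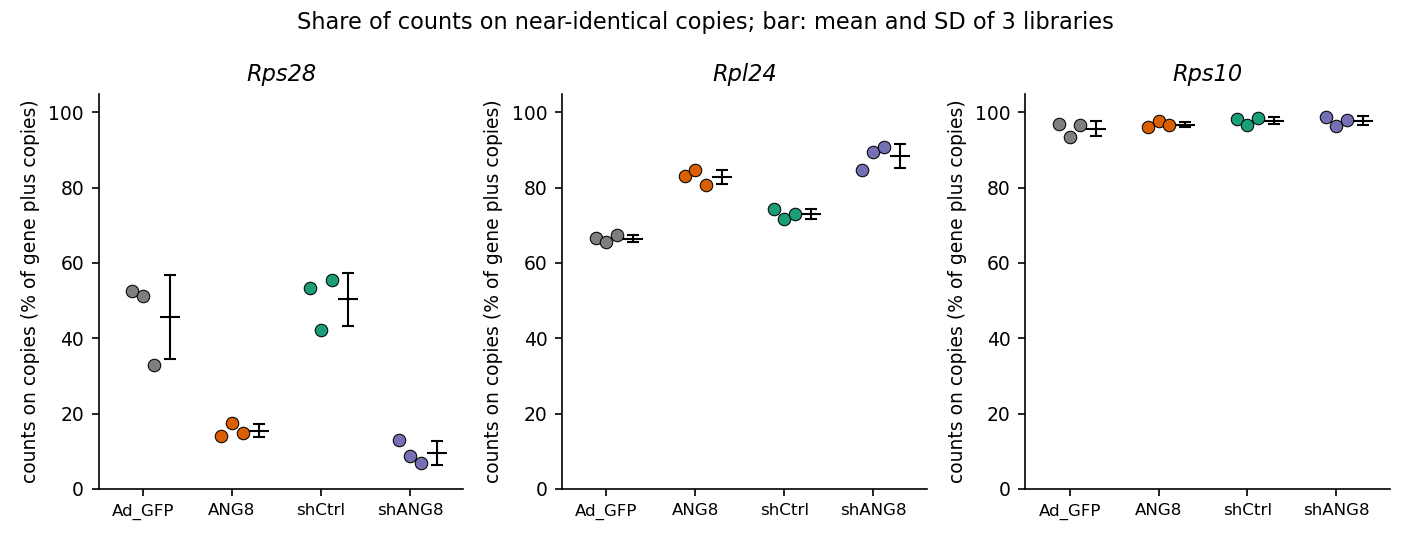
The y axis gives the percent of counts on near-identical copies, out of the counts of the gene and its copies, for Rps28, Rpl24 and Rps10 in each of 12 libraries, with the mean and SD of 3 libraries as a bar. The Rps28 share is 6.83 to 17.3% in ANG8 and shANG8, below the control libraries, the Rpl24 share is above them, and Rps10 sits near the top of the axis in all groups.

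Across the families, 397 copies of 57 members were found in the table, 369 of them processed pseudogenes, and 129 were tested. Under overexpression 26 of these copies were called, 6 higher and 20 lower, and under knockdown 14 were, 4 higher and 10 lower. That is 20.2% and 10.9% of the copies, beside the 13.5% and 0.191% of all genes. The 14 were also called under overexpression, each in the same direction in both comparisons. With Rpl24 they made up 15 of the 28 genes called under knockdown in the whole table. How many of the remaining genes called under knockdown were also called under overexpression is not given here. The direct test of overexpression against knockdown called 0 of the 129 copies with edgeR and voom and 2 with DESeq2, and 12 had an unadjusted p under 0.05. The control comparison called 0 copies with edgeR, DESeq2 and voom, and 9 had an unadjusted p under 0.05. The labels give no batch for these libraries, and the part of handling or counting in the copies' values was not tested.

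Most called copies belonged to members that were not called themselves, 23 of 26 under overexpression and 13 of 14 under knockdown. Only 3 of 80 members were called under overexpression and 1 of 80 under knockdown. Most copies therefore belong to members not called, whatever the copies' own values. Rpl10-ps3, identical over its aligned bases to Rpl10, the gene of a protein that joins the large subunit late in its assembly, fell by 3.42 under overexpression (adjusted p = 0.000122) and by 4.26 under knockdown (adjusted p = 0.000191). Rpl10 itself read 544 ± 75.7 CPM in Ad_GFP and 540.2 ± 64.1 in ANG8 (SD, n = 3), an effect of -0.01 (adjusted p = 0.984). In contrast Gm3362, a copy of Rpl23a, rose by 2.77 under overexpression (adjusted p = 0.000181) and by 3.64 under knockdown (adjusted p = 0.000164). Among the tested members, copies that met the rule took over 10% of the family's counts for 18 and over 50% for 4. The 4 were Rps10 (97.1%), Rpl24 (73.5%), Rpl17 (68.0%) and Rpl7a (51.3%), named after their values were seen, as were Rpl10-ps3 and Gm3362.

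Rpl41 (ENSMUSG00000093674, GRCm38 chromosome 10, 128548114 to 128549305, minus strand) encodes a very short protein, of 75 coding bases before the stop codon, that sits between the subunits. The whole coding sequence is printed because it is identical, over these coding bases, to that of its copy Gm10076. Over 383 aligned bases of the message the identity was 99.5%.
Rpl41: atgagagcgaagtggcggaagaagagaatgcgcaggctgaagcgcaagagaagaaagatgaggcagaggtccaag
Its level was 265, 207 and 217 CPM in Ad_GFP and 339.8, 336 and 314 in ANG8. It was 231, 259 and 234 CPM in shCtrl and 273, 344 and 298 in shANG8. The ANG8 and shANG8 libraries lay above their control groups without overlap, although by little: the lowest ANG8 library was 314 and the highest Ad_GFP library 265 CPM. The overexpression effect of 0.53 (SE 0.16, adjusted p = 0.0431) passed and the knockdown effect of 0.34 (SE 0.16, adjusted p = 0.647) did not. The overexpression call lay close to the threshold and was lost in 10 of 25 alternatives, with an adjusted p of up to 0.160. Leaving out 1 library ended it for ANG8 replicate 1 (adjusted p = 0.129), ANG8 replicate 2 (0.0971), ANG8 replicate 3 (0.0639), Ad_GFP replicate 2 (0.160), Ad_GFP replicate 3 (0.130), shCtrl replicate 1 (0.0595) or shCtrl replicate 2 (0.0614). Copies held 0.770 to 5.58% of the family's counts in 11 libraries and 19.2% in shANG8 replicate 1. With them added the overexpression effect was 0.54 (adjusted p = 0.0332) and the knockdown effect 0.43 (adjusted p = 0.527).

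Rpl30 (ENSMUSG00000058600, GRCm38 chromosome 15, 34440505 to 34443640, minus strand), a large-subunit protein that binds bent RNA helices, was the other member on the same side in both comparisons, and it is named after its values were seen. It read 218, 185 and 193 CPM in Ad_GFP and 150.1, 148 and 153 in ANG8, an effect of -0.40 (SE 0.18, adjusted p = 0.146). It read 215, 226 and 235 CPM in shCtrl and 107, 168 and 162 in shANG8, an effect of -0.63 (SE 0.18, adjusted p = 0.261). Neither effect passed the test, though the groups did not overlap in either comparison. Its copies held 7.73, 5.63 and 5.74% of the family's counts in shCtrl and 46.6, 11.7 and 8.08% in shANG8. With copies added the effects were -0.21 and -0.35, closer to 0 than those of the gene alone.

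**Figure D3:**
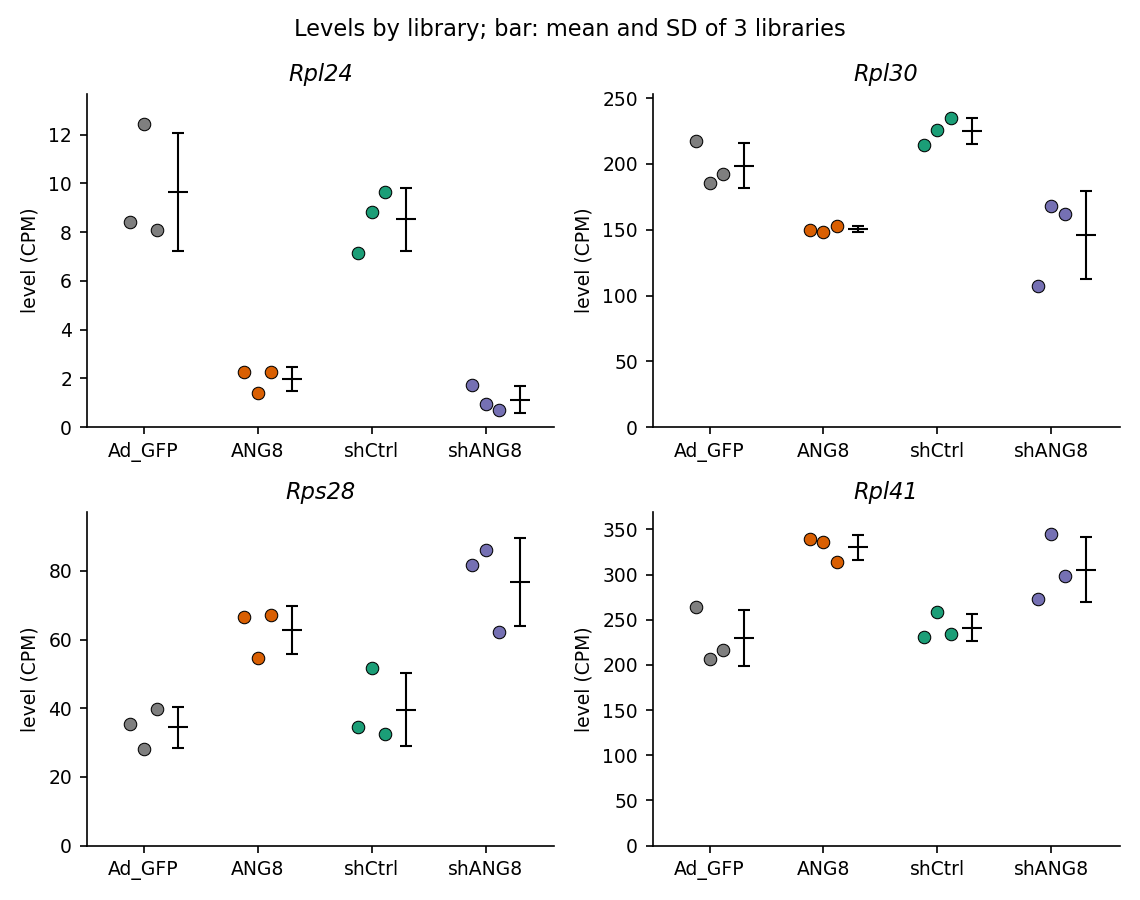
The y axis of each panel gives the level in CPM of Rpl24, Rpl30, Rps28 or Rpl41 in 3 libraries of each group, with the mean and SD as a bar. Rpl24 and Rpl30 are lower, and Rps28 and Rpl41 higher, in ANG8 and shANG8 than in their control groups, without overlap.

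Other large-subunit members with effects at the ends of the range did not pass the test. Rpl21 had the highest effects, 0.60 (adjusted p = 0.125) under overexpression and 1.04 (adjusted p = 0.164) under knockdown. It read 100.4, 92.4 and 109.7 CPM in shCtrl and 263, 207 and 152 in shANG8, without overlap, while 176, 88.5 and 167 CPM in Ad_GFP overlapped with 223, 257 and 173 in ANG8. No copy of Rpl21 met the rule above, which can miss copies of a principal transcript as long as this one (1856 bases). Under overexpression Rpl36, at -0.41 (adjusted p = 0.152), was the lowest after Rpl24, and Rplp2 was second highest at 0.54 (adjusted p = 0.118). Under knockdown Rpl17, whose protein lines the exit tunnel, was at -0.82 (adjusted p = 0.236), from 217, 203 and 261 CPM in shCtrl to 137, 128 and 121 in shANG8. With its copies added, which hold most of the family's counts, Rpl17 was at -0.14. Rpl8, a protein near the site of peptide bond formation, was at 0.67 (adjusted p = 0.317), with 304, 329.6 and 222 CPM in shCtrl and 524, 448 and 385 in shANG8.

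Small-subunit members other than Rps28 stayed below the test as well. After Rps28 the highest effect under overexpression was that of Rps19, a gene mutated in Diamond-Blackfan anaemia, at 0.45 (adjusted p = 0.146). It read 275, 289.7 and 267 CPM in Ad_GFP and 403, 422 and 309 in ANG8, and the groups did not overlap. The lowest were Rps10 at -0.35 (adjusted p = 0.690) and Rps27l at -0.28 (adjusted p = 0.454). Under knockdown Rps15, a protein of the subunit's head, was at 0.38 (adjusted p = 0.637), with 579, 555 and 428 CPM in shCtrl and 804, 592 and 630.4 in shANG8. Rps27a, which is made fused to ubiquitin, was lowest at -0.59 (adjusted p = 0.705), but shCtrl replicate 2 read 359 CPM beside 202 and 120.2 in the other libraries of that group. Rps7 followed at -0.43 (adjusted p = 0.584), from 339, 347 and 403 CPM in shCtrl to 326, 203 and 278 in shANG8.

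No member of the ribosomal stalk, which recruits elongation factors, passed the test. Rplp0, its base, read 349, 302 and 279 CPM in Ad_GFP and 364, 379 and 412 in ANG8, an effect of 0.31 (adjusted p = 0.260). Rplp2 read 91.7, 72.1 and 91.0 CPM in Ad_GFP and 114, 109.7 and 146 in ANG8, whereas Rplp1 was at -0.08 (adjusted p = 0.820). The ANG8 libraries lay above Ad_GFP without overlap for Rplp0 and Rplp2. Under knockdown the effects were -0.03 for Rplp0, -0.12 for Rplp1 and -0.31 for Rplp2 (adjusted p of 0.778 to 0.986). The direct test put Rplp2 at 0.85 (adjusted p = 0.114). Rps6, the substrate of the S6 kinases, was at 0.17 (adjusted p = 0.564) and 0.09 (adjusted p = 0.942). Rpl13a, a host of small nucleolar RNAs, read 27.7, 22.7 and 25 CPM in Ad_GFP and 31.5, 34.7 and 30.9 in ANG8, without overlap, an effect of 0.36 (adjusted p = 0.121).

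The ratio of large-subunit to small-subunit counts was lowest in shANG8, where Rpsa and Rps2 took a larger share of the small-subunit counts than in shCtrl. Rpsa, also known as the laminin receptor precursor, read 1194, 1144 and 1143 CPM in shCtrl and 1658, 1439 and 1384 in shANG8, an effect of 0.36 (adjusted p = 0.635). Rps2, a protein at the entry of the message channel, read 996, 1077 and 909 CPM in shCtrl and 1400.3, 1149 and 1193 in shANG8, an effect of 0.33 (adjusted p = 0.681). Neither passed the test, though both were higher in every shANG8 library. The counts of large-subunit members divided by those of small-subunit members came to 1.29 to 1.30 in the shANG8 libraries and 1.34 to 1.42 in the other 9 libraries. Rpsa and Rps2 together took 24.2 to 25.4% of the small-subunit counts in shANG8 and at most 21.7% in shCtrl. Over the other 9 libraries the share was 19.3 to 24.6%, and Ad_GFP replicate 2, at 24.6%, lay within the shANG8 range. Without these genes, left out after their values were seen, the ratio was 1.699 to 1.739 in shANG8, still below the 1.742 to 1.787 of shCtrl. It was 1.776 to 1.806 in Ad_GFP, and ANG8 replicate 2, at 1.716, was the 1 library of another group within the shANG8 range.

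Both subunits took a larger share of the nuclear counts in ANG8, while their shares of all counts overlapped with Ad_GFP. Of counts outside the mitochondrial genome, large-subunit members took 1.79, 1.70 and 1.74% in Ad_GFP and 2.27, 2.14 and 2.02% in ANG8. Small-subunit members took 1.28, 1.25 and 1.22% in Ad_GFP and 1.65, 1.60 and 1.42% in ANG8. Of all counts, with the mitochondrial genome included, large-subunit members took 1.43, 1.10 and 1.28% in Ad_GFP and 1.38, 1.203 and 1.57% in ANG8, which overlap, and small-subunit members 1.03, 0.814 and 0.899% and 1.00, 0.896 and 1.10%. The nuclear shares did not overlap, while the median TMM-scaled effects given above were close to 0. The summed level of 10 hepatocyte markers ranged from 45268 to 67163 CPM in Ad_GFP and from 25139 to 51689.6 in ANG8, with 7 of 10 lower by the test and 0 higher. Summed over 10 macrophage markers the range was 407 to 566 CPM in Ad_GFP and 966 to 1233 in ANG8, with 7 of 10 higher. Of 10 markers of T and natural killer cells 6 were higher and 1 lower, with sums of 48.9 to 70.5 and 132 to 146 CPM. Of 6 markers of dividing cells 3 were higher, with sums of 49.3 to 63.1 and 129 to 182 CPM. Over all tested genes 7.08% were called higher and 6.39% lower under overexpression. The part of cell composition in the members' values was not tested. In bulk RNA, fewer cells of a type and less RNA per cell cannot be told apart.

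In the knockdown arm the shares of nuclear counts overlapped, and 0 of 65 markers of liver and blood cell types were called with edgeR and voom, 1 with DESeq2 and 8 at an unadjusted p under 0.05. Of these 8, 5 were T and natural killer cell markers, whose sums were 66.6 to 87.2 CPM in shCtrl and 39.9 to 55.9 in shANG8, without overlap. The sums of 5 cholangiocyte markers were 48.8 to 71.1 and 21.6 to 38.7 CPM, also without overlap, but 0 of the 5 had an unadjusted p under 0.05. Sums of 4 neutrophil markers, 3.07 to 7.45 and 2.05 to 2.99 CPM, did not overlap either. Of these only 2 were tested, and 1 had an unadjusted p under 0.05. The part of these cell types in the members' values was not tested. Large-subunit members took 1.89, 1.81 and 1.59% in shCtrl and 1.94, 1.73 and 1.60% in shANG8. Small-subunit members took 1.35, 1.31 and 1.16% in shCtrl and 1.5, 1.34 and 1.23% in shANG8. Libraries of 1 group differed in the whole class: shANG8 replicate 1 lay above its group mean for 76 of 80 members and Ad_GFP replicate 1 for 73, whereas Ad_GFP replicate 2 did so for 11.

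**Figure D4:**
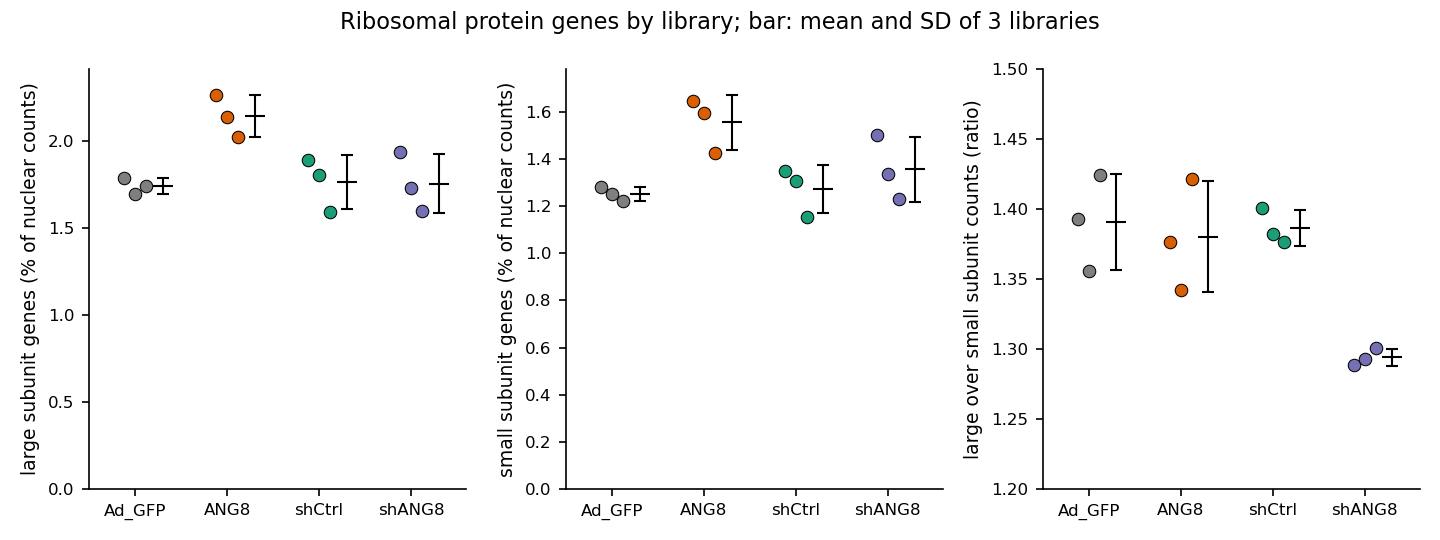
The y axes give the percent of nuclear counts on large-subunit and small-subunit genes and the ratio of their counts, for 3 libraries of each group with the mean and SD as a bar. The mean shares are highest in ANG8, with libraries at 2.02 to 2.27% for the large subunit, and the ratio is lowest in shANG8. The axis of the ratio does not start at 0.

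Most members read higher in shCtrl than in Ad_GFP, by amounts that did not pass the test gene by gene. In shCtrl against Ad_GFP, which shares Ad_GFP with the overexpression comparison and shCtrl with the knockdown comparison, the median effect was 0.15 over the large and 0.21 over the small subunit, against -0.02 over all genes. Effects were above 0 for 68 of 80 members, against 47.9% of all genes. Without overlap 23 members were higher and 0 lower, where 7.66% and 8.45% of all genes were so. No member passed the test with edgeR (0% of all genes did), DESeq2 or voom, and 13 had an unadjusted p under 0.05, as did 8.76% of all genes. The median deviation of a library's members from their mean over the 12 libraries was 0.0390, -0.222 and -0.142 in Ad_GFP and 0.0872, 0.0902 and 0.0392 in shCtrl on the log2 scale. The lowest value belongs to Ad_GFP replicate 2, the library of that group with the largest mitochondrial share. The highest effect was that of Rpl7a, with 81.0, 78.6 and 37.5 CPM in Ad_GFP and 131, 125 and 103 in shCtrl (0.87, adjusted p = 0.583). More of that family's counts lay on copies than on the gene. Its most abundant copy, Rpl7a-ps5, had 1687, 974 and 1521 raw counts in Ad_GFP and 1059, 889 and 617 in shCtrl. The effect with copies added is not given here, so the value of Rpl7a alone is uncertain.

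Levels per length differed among the members. Per kilobase of the principal transcript the median over 12 libraries was 313 CPM for the large and 346 for the small subunit. The highest large-subunit genes were Rpl36 at 1296, Rplp1 at 1188 and Rpl19 at 661 CPM per kilobase, ranked on the deposited gene length. For the small subunit they were Rps15 at 1141, Rps2 at 908 and Rpsa at 636 CPM per kilobase. Per principal transcript Rps18, named after its value was seen, was the highest of the small subunit and second of all 80 tested members, at 1251. At the low end stood Rps10 at 2.47, Rpl24 at 7.85, Rpl7l1 at 21.8, Rpl13a at 26.2, Rps15a at 28.8 and Rpl22l1 at 58.0 CPM per kilobase. Rps15a is low per length beside a principal transcript of 5179 bases, at a level of 149 CPM. The upper quartile of the members was 2.20-fold the lower, and the highest member was 525-fold the lowest.

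**Figure D5:**
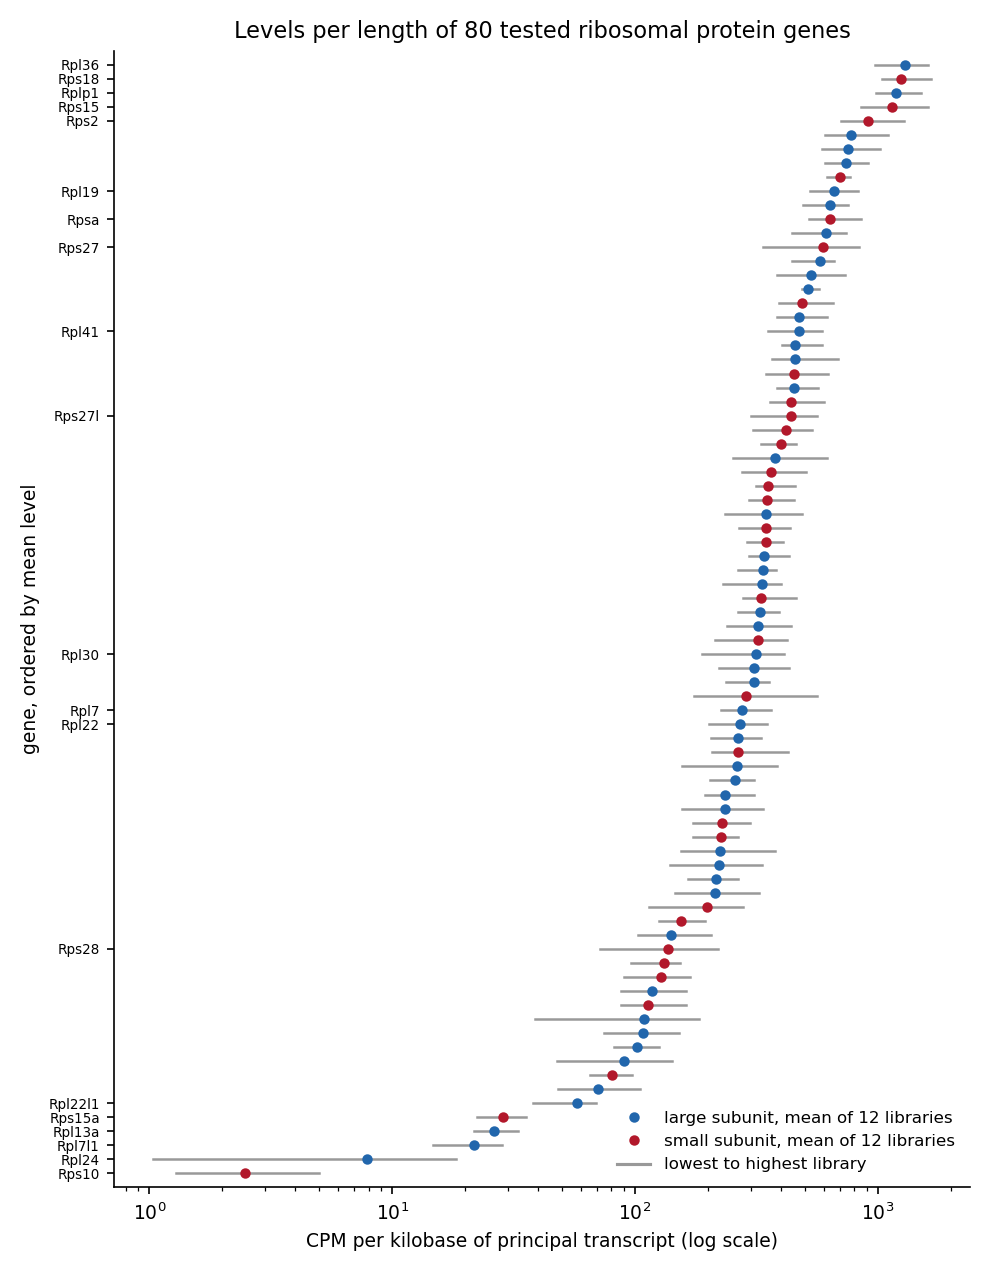
The x axis, on a log scale, gives CPM per kilobase of principal transcript for 80 tested genes, one per line on the y axis with 20 of them labelled, as the mean of 12 libraries with a line from the lowest to the highest library. Rps10 and Rpl24 lie lowest, at 2.47 and 7.85, and Rpl36 highest, at 1296.

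Most variants with a parent gene had fewer counts per length than the parent in liver, and 3 had almost none. Rpl3l, a striated-muscle variant of Rpl3, had 0 to 8 counts per library, Rpl39l 1 count in 1 Ad_GFP library, and Rpl10l, a testis variant of Rpl10, 0 counts in all 12. These 3 failed the filter on low counts. Summed muscle markers reached 4.30 CPM in any library and testis markers 0.652, with the testis marker Tnp1 at 0 in all. A count of 0 in all 12 libraries allows up to 3 counts in their sum. Rpl3 read 159 CPM over the 12 libraries and Rpl39 137. Rpl7l1, a relative of a yeast assembly factor of the large subunit, read 49.0, 38.6 and 55.7 CPM in Ad_GFP and 43.4, 49.4 and 57.1 in ANG8, an effect of 0.07 (adjusted p = 0.843), where Rpl7 was at -0.13 (adjusted p = 0.697). Per kilobase of principal transcript, Rpl7l1 stood at 21.8 and Rpl7 at 276 CPM, and Rpl22l1 at 58.0 and Rpl22 at 269.8 CPM. Rpl22 read 148, 152 and 166 CPM in shCtrl and 125, 96.1 and 111 in shANG8, without overlap (-0.49, adjusted p = 0.440), while its relative Rpl22l1 was at -0.22 (adjusted p = 0.859). Rps27l, a target of p53, was closer to its parent, at 439 CPM per kilobase against 594 for Rps27, and neither gene passed a test.

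Some members were measured more tightly than others. The standard deviation within groups, pooled over the 4 groups on the log2 scale, had a median of 0.184 over the tested members. Rps10 (0.604), Rpl7a (0.577), Rps27a (0.498) and Rpl24 (0.437) were the loosest. Rps10, Rpl24 and Rpl7a are among the 4 members with more counts on copies than on the gene.

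Of 5 ribosomal protein genes outside the naming pattern, 1 was called under overexpression, where 13.5% of all genes were called. Fau, the source of a small-subunit protein, was at 0.16 (adjusted p = 0.594) under overexpression, Rack1, a scaffold on the small subunit, at 0.03 (adjusted p = 0.939) and Rpl36al at 0.15 (adjusted p = 0.908). Rps27rt, a retrogene identical to Rps27 over the aligned message, was called lower. It read 98.0, 83.4 and 86.5 CPM in Ad_GFP and 18.7, 46.2 and 24.0 in ANG8, an effect of -1.59 (adjusted p = 0.0359), and leaving out 1 library ended the call for 8 of 12, most for ANG8 replicate 3 (0.125). Rps27rt counts among the copies of Rps27, so neither level is certain. Under knockdown 0 of these 5 genes were called with edgeR, DESeq2 or voom, where edgeR called 0.191% of all genes. Of the 5, 0 had an unadjusted p under 0.05, against 7.93% of all genes.

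Genes that build ribosomes were also followed under overexpression. Of 48 ribosome biogenesis genes 4 were higher and 0 lower, with a median of 0.08 against 0.00 over all genes. These are 8.33% of the list, where 13.5% of all genes were called and 7.08% were higher. They were Nop56 at 0.79 (adjusted p = 0.0162) and Nop58 at 0.78 (adjusted p = 0.0274), core proteins of the box C/D particles that modify ribosomal RNA, Ncl, nucleolin, at 0.77 (adjusted p = 0.0467) and Eif6, which holds the large subunit back from joining, at 0.56 (adjusted p = 0.0454). Nop58 read 17.7, 32.1 and 29.9 CPM in Ad_GFP and 45.3, 54.9 and 36.6 in ANG8, without overlap. For Ncl, ANG8 replicate 2 stood out at 390.2 CPM beside 188 and 195 in the other ANG8 libraries. Of 12 genes of RNA polymerase I and its factors 0 were called with edgeR, DESeq2 or voom, with 3 at an unadjusted p under 0.05, and the median of that list was 0.24. Of 77 tested mitochondrial ribosomal protein genes only Mrpl39 was called, lower at -0.54 (adjusted p = 0.0416), and the median was -0.11.

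Of 33 translation factors (median -0.03), Eif5b, which joins the subunits, rose, and Eif4a2, a helicase, and Eef2k, a kinase that slows elongation, fell. These 3 are 9.09% of the list, where 13.5% of all genes were called. Eif5b read 90.4, 64.0 and 76.3 CPM in Ad_GFP and 227, 444 and 92.4 in ANG8, so the ANG8 libraries differed widely (1.72, adjusted p = 0.0186). Eif4a2 was at -0.62 (adjusted p = 0.0442) and Eef2k at -0.80 (adjusted p = 0.0450). Of 29 genes around mTORC1 and Myc (median 0.06), 3 fell and 0 rose, 10.3% against 13.5% of all genes called. Deptor, an inhibitor of mTOR, read 124, 107 and 96.7 CPM in Ad_GFP and 44.2, 62.4 and 31.8 in ANG8 (-1.25, adjusted p = 0.00155). Eif4ebp2, a repressor of cap-dependent translation, read 272, 268 and 236 and 158, 147 and 139 CPM (-0.80, adjusted p = 0.00263), and Mxi1, an antagonist of Myc, was at -0.81 (adjusted p = 0.0138). Of 16 other genes with a pyrimidine tract (median 0.03), 2 rose and 0 fell, against 13.5% of all genes called. Nap1l1, a histone chaperone, rose by 0.70 (adjusted p = 0.0202) and Vim, the filament protein of mesenchymal and many immune cells, by 1.24 (adjusted p = 0.00764). In the same comparison 7 of 10 macrophage, 6 of 10 T and natural killer cell and 3 of 6 dividing-cell markers were called higher, and 1 of the T and natural killer cell markers and 7 of 10 hepatocyte markers lower. Their part in these lists was not tested. The calls of Deptor, Eif4ebp2 and Vim held in all 25 alternatives. With 1 library left out, the highest adjusted p of the others was that of Ncl (0.306 without ANG8 replicate 2), Eif6 (0.234 without ANG8 replicate 3), Mrpl39 (0.181 without ANG8 replicate 2), Eef2k (0.154 without Ad_GFP replicate 1), Eif4a2 (0.141 without Ad_GFP replicate 2), Nop58 (0.127 without Ad_GFP replicate 1), Nap1l1 (0.101 without Ad_GFP replicate 1), Nop56 (0.0855 without ANG8 replicate 1), Eif5b (0.0853 without Ad_GFP replicate 2) and Mxi1 (0.0652 without Ad_GFP replicate 1). Under knockdown 0 of the 143 tested genes of these lists outside the mitochondrial ribosome were called with edgeR, DESeq2 or voom, and 18 had an unadjusted p under 0.05.

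A gene annotated as ribosomal RNA, CT010467.1, chosen after its values were seen, rose in both comparisons. It read 287, 289.6 and 287 CPM in Ad_GFP and 1474, 1501 and 1638 in ANG8, an effect of 2.42 (SE 0.26, adjusted p = 5.36e-05). It read 656, 336 and 321 CPM in shCtrl and 1391, 1743 and 2197 in shANG8, an effect of 2.02 (SE 0.26, adjusted p = 0.000822). All ANG8 and shANG8 libraries lay above all control libraries, as they lay below them for Rpl24. Its part in the members' values was not tested.

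Promoter windows of the members were searched for 3 short motifs. RefSeq windows of 300 bases (GRCm38.p6), 250 before and 50 after the annotated start, were matched by symbol for 63 of 83 members. The letters CCGGAAG, a core bound by ETS factors, or their reverse complement CTTCCGG stood in 25 of these (39.7%), against 9.12% of 27025 promoters. CTTTCC, a pyrimidine-rich run of the kind found at the start of these messages, or its reverse complement GGAAAG stood in 30 (47.6%), against 26.3%. On the strand of the message alone, CTTTCC stood in 22 of the 63, against 14.0% of all promoters. TATAAA or TTTATA stood in 6 (9.52%), against 14.2%. Both strands were searched, no 2 of these motifs contain each other, and a match is a description of letters only. The 3 called members are shown from 60 bases before to 30 bases after the annotated start, with any match to CCGGAAG or CTTTCC in capitals, to let their starts be compared. They lie at chr16:55966215-55966304 on the plus strand, chr17:33824533-33824622 on the minus strand and chr10:128549139-128549228 on the minus strand.
Rpl24: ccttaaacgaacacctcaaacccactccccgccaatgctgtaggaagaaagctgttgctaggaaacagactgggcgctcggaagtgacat
Rps28: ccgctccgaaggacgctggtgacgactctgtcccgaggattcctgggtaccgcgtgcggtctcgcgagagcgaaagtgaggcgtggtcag
Rpl41: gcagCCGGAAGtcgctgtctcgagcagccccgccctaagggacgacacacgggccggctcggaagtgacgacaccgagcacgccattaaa
In these shorter stretches Rpl41 holds CCGGAAG, and Rpl24 and Rps28 hold neither motif.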

How the data were processed

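RNA sequencing of mouse liver gave 12 libraries in 4 groups of 3, grouped by the labels. Per the labels' protocols, Trizol was used for the RNA and an NEBNext Ultra kit for the libraries. The authors deposited unscaled whole-number counts of 54532 genes in 1 table. Named in the submitters' processing notes are featureCounts 1.5.0-p3, CASAVA 1.8.2 and mm9 as the build. The aligner, strand setting and annotation release were not given in the sources used here. For 81 of 83 members the deposited coordinates are those of GENCODE vM21 (GRCm38), so positions are given as GRCm38.

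Genes were filtered with filterByExpr in edgeR 4.0.16 (R 4.3.3), which kept 14686 genes with at least 99.9% of the counts of every library. Counts were scaled by TMM and fitted over all 12 libraries with a robust quasi-likelihood model, so the groups shared 1 estimate of the spread. P-values were adjusted by the Benjamini-Hochberg method over all tested genes. An SE is the effect divided by the square root of its F statistic. Copies were found with blastn 2.17.0 among GENCODE vM21 transcripts. Alternatives were DESeq2 1.42.0, limma 3.58.1 voom, other scalings and filters, a mitochondrial covariate, a replicate block, each library left out and, added after seeing the data, copies added to their member. The fit was tested on simulated data.

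The members and lists were chosen with earlier results of these data known. Named genes were called members, members that failed the filter, variants with their parents, the 3 highest and 3 lowest per length and the 2 highest and 2 lowest effects of each subunit, Rplp0, Rplp1, Rplp2, Rpsa, Rps6, Rpl13a, up to 4 called genes of each list, and Angptl8. Others are named where a result turns on them, and the values of 2 genes are not reported here. Reads of genes with near-identical copies, of overlapping genes and, with the strand setting not given, of antisense genes cannot be told apart, so their values are uncertain.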

Additional observations from a re-analysis of the deposited data

Results flagged for a closer look

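The effects of overexpression and knockdown differed by the direct test for 7 of the genes named above, none of them a ribosomal protein gene. Over all tested genes 6.62% were called. Apart from Angptl8, the 7 were named because they were called under overexpression, which is part of the direct test. Of list genes not named above, Eef1b2 (0.80, adjusted p = 0.0493) and 1 of 12 genes of RNA polymerase I and its factors were called, both higher. The difference, overexpression minus knockdown on the log2 scale, was 2.58 for Angptl8 (adjusted p = 0.00700). It was 1.42 (adjusted p = 0.0369) for Vim, 1.21 (adjusted p = 0.0301) for Nop58 and 1.15 (adjusted p = 0.0170) for Nap1l1. It was -1.31 (adjusted p = 0.0170) for Deptor, -1.26 (adjusted p = 0.0398) for Eef2k and -1.10 (adjusted p = 0.00723) for Eif4ebp2. By the same test 5 of 10 macrophage, 7 of 10 T and natural killer cell and 3 of 6 dividing-cell markers were higher and 4 of 10 hepatocyte markers lower, and their part in these differences was not tested.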

How the results depend on the processing

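No member changed sign in a call under any of the 25 alternatives run, and Rpl24 was called in every one of them in both comparisons, at -2.41 to -1.33 under overexpression and -3.39 to -1.75 under knockdown. The smallest of these effects had the copies added. Counts of called members were small and moved with the settings, and the cause was not tested. Under overexpression the 2 large-subunit calls became 1 with library totals alone or only the groups of the contrast in the fit, and 4 with a covariate for the mitochondrial share (Rpl24, Rpl32, Rpl4 and Rpl41). Leaving out 1 library gave 1 to 2. The 1 small-subunit call became 0 with copies added and 2 with the covariate (Rps23 and Rps28). Under knockdown the 1 large-subunit call became 4 with DESeq2 (Rpl21, Rpl24, Rpl3 and Rpl30), 4 without the filter (Rpl17, Rpl21, Rpl24 and Rpl39) and 2 with the covariate (Rpl17 and Rpl24). Leaving out 1 library gave 1 to 2, with 2 without ANG8 replicate 3 (Rpl17 and Rpl24). The 0 small-subunit calls became 1, Rps28, with DESeq2, without the filter and with the replicate block, and 0 to 1 with 1 library left out. For the difference, the 0 large-subunit calls became 1 with the covariate (Rpl32), 2 without the filter (Rpl32 and Rplp2) and 1 with the replicate block (Rpl32). Leaving out 1 library gave 0 to 1 for each subunit, where leaving out shANG8 replicate 1 called Rplp2 and Rps15a. The control comparison called 0 members in all 25. Of the copies, DESeq2 called 27 under knockdown where edgeR called 14. The share of all genes called by DESeq2 is not given here. Whether the added DESeq2 calls are particular to members and copies can therefore not be told.

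The replicate numbers were not taken to pair the libraries, since the labels state no shared source and not every correlation was over 0.1. Deviations of libraries with the same number correlated at -0.0898 to 0.175 in the overexpression arm and 0.0434 to 0.225 in the knockdown arm, against -0.253 to 0.142 and -0.159 to 0.0875 for other numbers. The replicate block gave 2 large and 1 small call under overexpression and 1 of each under knockdown. The median effects of both subunits stayed between 0.0162 and 0.152 under overexpression and between -0.104 and 0.115 under knockdown, so their sign under knockdown depended on the setting. With 3 libraries a group and a median SE of 0.177 over members, small shared changes were not detectable gene by gene. Rps10 and Rpl24 rest on the fewest counts of the tested members.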
